A study of Mus musculus with 11 samples.

Results

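The comparison concerned 2 independently targeted lines of mouse embryonic stem (ES) cells, 10E and 11D, before loss of the protein their tag was made to remove. Members were chosen by column: the 2 libraries of 10E and the 2 of 11D that received the solvent ethanol (EtOH), 4 of the 10 libraries in the count table, across all genes. Both derive from E14, a male ES line, and both carry V5 and auxin-inducible degron tags on SPT16. SPT16 is the larger protein of FACT, which takes histones off and puts them back as polymerases pass, and the degron directs a tagged protein to degradation when indole-3-acetic acid (IAA) is added. EtOH cultures of 10E and 11D therefore carried the tag and no IAA, and the groups shared everything the labels describe except the line. Cells were grown without feeders in 10% serum with 1000 U/mL LIF, 3 µM of the GSK3 inhibitor CHIR99021 and 1 µM of a MEK inhibitor, for 48 hours before 24 hours of treatment. Set beside them were 3 tagged libraries after 500 nM IAA (1 of 10E and 2 of 11D) and 3 of an untagged line after the same IAA. The untagged line had no EtOH library, so its values are not a baseline. Each line is 1 targeted line, so a difference between 10E and 11D is a difference between 2 lines and is not a property of the tag. Nothing in the labels states that replicates were grown apart, so p-values measure only the spread between these libraries, which may be technical.

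ES cells are the cultured counterpart of the early epiblast. Lines derived from a common parent are known to diverge in imprinted expression, in DNA methylation and in chromosome content. An imprinted gene is transcribed mainly from the allele of a single parent, and the choice rests on DNA methylation at CG dinucleotides of a control region that was set in the egg or the sperm. At the Dlk1-Dio3 locus the noncoding RNAs Meg3, Rian and Mirg, which host many small RNAs, come from the maternal allele, and the protein-coding genes Dlk1, Rtl1 and Dio3 from the paternal allele. Plagl1, a zinc finger transcription factor, is paternally expressed, and Grb10, an adaptor of growth factor receptors, is maternally expressed in most tissues.

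The promoter windows of 4 genes that separated the lines under every alternative are shown, with each CG in capitals. Each window lies at the most upstream RefSeq start of its gene. The windows were not chosen as imprinting control regions, and whether any of them overlaps such a region was not examined. T (Brachyury, a T-box factor of the primitive streak) is given as the gene with the largest difference in the other direction. The windows run from 250 bases before to 50 bases after the RefSeq start (GRCm38.p6, 5′ to 3′ on the gene's strand), and methylation was not measured. The motif CG reads the same on both strands.
Meg3 promoter, chr12:109540746-109541045, plus strand: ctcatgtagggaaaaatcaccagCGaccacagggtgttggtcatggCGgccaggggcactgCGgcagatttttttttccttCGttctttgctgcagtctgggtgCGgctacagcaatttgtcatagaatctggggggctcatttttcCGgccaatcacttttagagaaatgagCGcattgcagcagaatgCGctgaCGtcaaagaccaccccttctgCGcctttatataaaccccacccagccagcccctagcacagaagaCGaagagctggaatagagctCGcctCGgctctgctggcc
Plagl1 promoter, chr10:13090582-13090881, plus strand: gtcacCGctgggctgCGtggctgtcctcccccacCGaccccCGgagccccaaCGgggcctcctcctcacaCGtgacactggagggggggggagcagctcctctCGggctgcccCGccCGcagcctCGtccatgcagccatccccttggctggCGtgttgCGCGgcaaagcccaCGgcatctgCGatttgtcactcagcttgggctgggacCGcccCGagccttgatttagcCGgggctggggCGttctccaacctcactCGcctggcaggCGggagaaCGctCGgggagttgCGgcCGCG
Grb10 promoter, chr11:12037371-12037670, minus strand: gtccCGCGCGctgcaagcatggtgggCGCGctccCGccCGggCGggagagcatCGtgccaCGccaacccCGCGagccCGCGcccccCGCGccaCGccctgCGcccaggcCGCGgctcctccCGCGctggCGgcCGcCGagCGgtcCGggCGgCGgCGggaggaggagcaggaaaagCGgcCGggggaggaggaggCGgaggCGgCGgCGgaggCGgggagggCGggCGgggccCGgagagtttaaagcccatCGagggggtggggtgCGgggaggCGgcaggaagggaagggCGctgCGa
T promoter, chr17:8434173-8434472, plus strand: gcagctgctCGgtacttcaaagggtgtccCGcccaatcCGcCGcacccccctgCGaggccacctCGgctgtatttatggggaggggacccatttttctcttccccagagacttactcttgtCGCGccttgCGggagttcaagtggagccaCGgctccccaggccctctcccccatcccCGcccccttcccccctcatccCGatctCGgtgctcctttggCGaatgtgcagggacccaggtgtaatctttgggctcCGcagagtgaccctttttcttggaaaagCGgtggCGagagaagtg
The Meg3 window held 13 CG, a number that 76.5% of the windows of tested genes reached or passed. The Plagl1 window held 26 (reached by 34.1%), the Grb10 window 45 (3.49%) and the T window 17 (65.0%), so the 4 windows differ widely in CG content. A comparison of all called genes was void, because 70.9% of those lower in 10E and 70.1% of all tested genes matched a window, below the share of genes that such a check needs.

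Total counts were 7780071 and 11449319 in 10E EtOH and 3554390 and 11848952 in 11D EtOH, replicates 1 and 2 in each case. The replicates of a line differed by more than counting noise (chi-square per degree of freedom 19.98 in 10E and 25.5 in 11D), so each library counted once. Within each line 1 library stood apart. CT010467.1 is listed under a clone identifier, and what it encodes was not examined. Reads assigned to it were 2.64% of counts in 10E replicate 2 and 4.27% in 11D replicate 1, against 0.129% and 0.815% in their partners. The clustered histone genes summed to 8290 and 8101 CPM, counts scaled to library size, in those libraries and to 5315 and 2789 in the partners. CPM here use library sizes adjusted by TMM factors (trimmed mean of M values) over all libraries. The tagged gene did not differ, with Supt16 at 390 and 420 CPM in 10E and 359 and 398 in 11D (FDR = 0.740), and its partner Ssrp1 had an FDR of 0.562. The exons of both overlap another gene, and the strand setting of the counting is not given in the sources used here, so reads of the partner could be included.

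Of 14860 genes tested, 46 were higher in 10E (0.31%) and 117 lower (0.787%), together 1.1%. Calls required an FDR (p adjusted by Benjamini and Hochberg's method over all tested genes) under 0.05 in edgeR's quasi-likelihood test. All log2 differences below are 10E minus 11D with their standard error. Of the 163 called genes, 105 differed at least 2-fold and 143 are annotated as protein-coding. In all 163 the groups of the lines did not overlap, so a lack of overlap adds nothing to a call. Among all 14860 tested genes the groups did not overlap in 7130. The lower calls were concentrated in places: 21 of 117 lay in 1 segment of chromosome 6 and 11 between Meg3 and Mirg on chromosome 12. The latter include small RNA genes that passed the filter on low counts only through 11D. The numbers of calls depended on single libraries. Without 10E replicate 1 there were 3 higher and 10 lower calls, without 10E replicate 2 there were 2 and 15, without 11D replicate 1 there were 696 and 539, and without 11D replicate 2 there were 89 and 186. Without both libraries richest in CT010467.1, in a fit of the 8 others, 210 were higher and 298 lower, and 140 of the 163 were called again with the same sign. Of 50 called genes named here, 10 were called under each of the 12 alternatives: Meg3, Rian, Mirg, B830012L14Rik, Gm37899, Plagl1, Impact, Grb10, T and Zfp951. For counts at an unadjusted p under 0.05 given below, the share of all tested genes was 16.7% (7.64% higher and 9.08% lower), and DESeq2 called 2.07%.

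**Figure D1:**
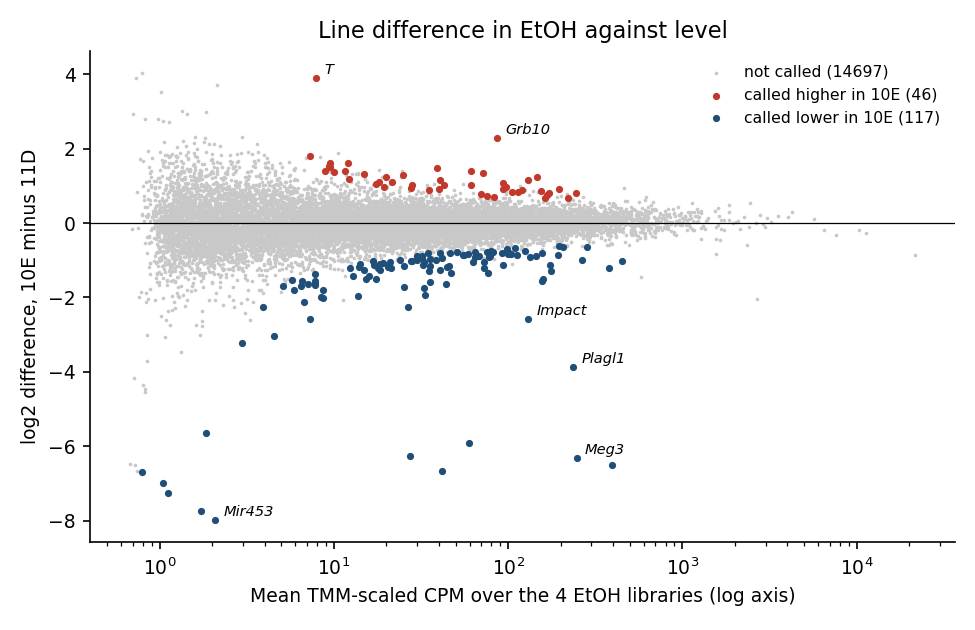
Log2 difference between the lines in EtOH (vertical axis) against the mean CPM of the 4 EtOH libraries (horizontal log axis), 1 point per tested gene, with called genes in colour. Among called genes with counts in both lines the differences run from -6.68 (B830012L14Rik) to 3.90 (T), and 14697 genes were not called. The 5 called genes with 0 counts in 10E, Mir453 among them, are drawn at fitted values that are not measured folds.

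The largest difference was at the maternally expressed noncoding RNAs of the Dlk1-Dio3 locus, which were near background in 10E and abundant in 11D. Meg3 (chr12:109541001-109571726, plus strand, GRCm38), a long noncoding RNA, was at 4.39 and 7.59 CPM in 10E and at 510 and 465 in 11D, a log2 difference of -6.33 ± 0.23 (SE; edgeR FDR = 1.71e-06). Rian (chr12:109603940-109661716), host of a cluster of small nucleolar RNAs, was at 7.04 and 9.89 CPM in 10E and at 730 and 822 in 11D (-6.51 ± 0.19, FDR = 9.86e-07). Mirg (chr12:109729764-109749460), host of a microRNA cluster, was at 1.73 and 2.10 CPM in 10E and at 116 and 118 in 11D (-5.92 ± 0.18, FDR = 1.03e-06). In each of the 3 genes the 10E libraries lay far below both 11D libraries. The exons of all 3 overlap small RNA genes, nearly all on the same strand. In bulk RNA, fewer cells with a transcript and less of it per cell cannot be told apart.

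The 16 genes tested from Meg3 to Mirg all lay below 0, and 11 of them were called lower in 10E, against 0.787% of tested genes. The microRNA and small nucleolar RNA genes among the 16 had 0 or 1 counts in 10E. They passed the filter on low counts only through 11D, so their sign was fixed beforehand and adds no support. Beside the 3 hosts the calls included B830012L14Rik, an unnamed noncoding RNA between Rian and Mirg. It was at 0.665 and 0.899 CPM in 10E and 84.1 and 80.6 in 11D. Gm37899, another transcript there, was at 0.930 and 0.499 CPM in 10E and 51.9 and 55.7 in 11D. Names outside the rule for naming genes, in this paragraph and below, were chosen after their values were seen. The paternal side of the locus was barely measured: Dio3, a deiodinase that inactivates thyroid hormone, was at 1.60 and 3.60 CPM in 10E and 4.91 and 1.10 in 11D, with overlapping groups and no call (FDR = 0.933). Dlk1, Rtl1 and Dio3os stayed at or below 0.532 CPM in all EtOH libraries and were not tested.

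Reads also fell on 5 called microRNA genes of the interval, Mir433, Mir453, Mir3070b, Mir1193 and Mir341. The libraries were made from total RNA with a directional kit, so these counts come from longer RNA over the hairpins and are not levels of mature microRNAs. The mature sequences that these loci encode are shown because all 5 lie in the interval that separated the lines (RefSeq, GRCm38.p6, 5′ to 3′), with the seed, bases 2 to 8, in capitals.
mmu-miR-1193-5p: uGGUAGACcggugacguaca
mmu-miR-1193-3p: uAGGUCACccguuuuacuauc
mmu-miR-3070-5p: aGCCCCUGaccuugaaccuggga
mmu-miR-3070-2-3p: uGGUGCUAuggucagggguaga
mmu-miR-341-5p: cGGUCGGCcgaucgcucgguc
mmu-miR-341-3p: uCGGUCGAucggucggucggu
mmu-miR-433-5p: uACGGUGAgccugucauuauuc
mmu-miR-433-3p: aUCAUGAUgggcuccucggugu
mmu-miR-453: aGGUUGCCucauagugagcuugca
The 9 mature sequences have 9 different seeds, so no seed family is shared among them. Mir453 (chr12:109735619-109735700) had 0 counts in 10E and 53 in 11D, at 4.91 and 3.38 CPM. Against a floor of 3 counts over the 10E group, that is 22.0-fold higher in 11D. Mir433 (chr12:109591715-109591838) had 1 count in 10E and 51 in 11D, a ratio of pooled counts of 63.7 (95% exact interval 10.9 to 2563). Mir3070b was 14.6-fold, Mir1193 11.2-fold and Mir341 9.57-fold higher in 11D by the same floor. The interval covers counting error only, and the folds against a floor do not cover the counting error of 11D. All 5 calls were lost without 10E replicate 1 (edgeR FDR 0.146 to 0.236) and without 10E replicate 2 (0.107 to 0.205), and without 11D replicate 2 the 4 other than Mir453 fell under the filter. Of the 11 calls from Meg3 to Mirg, 5 were left without 10E replicate 1, 5 without 10E replicate 2 and 6 without 11D replicate 2.

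Elsewhere, the 4 called genes listed as paternally expressed were lower in 10E. The 2 called genes listed as maternally expressed, Grb10 and Gnas, were higher. Of 22 tested paternally expressed genes outside Dlk1-Dio3, 4 were lower in 10E, 0 higher, and 18 did not pass, with a median log2 difference of -0.53 (all tested genes, -0.003) that was -0.29 without 11D replicate 2. Of 21 tested maternally expressed genes, 2 were higher, 0 lower, and 19 did not pass, with a median of 0.18 that was 0.084 without 11D replicate 2. At an unadjusted p under 0.05, 11 paternally expressed genes were lower and 0 higher, and 4 maternally expressed genes were higher and 1 lower. DESeq2 called 6 and 2 genes of these lists.

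Plagl1 (chr10:13060504-13131694) was at 29.1 and 32.1 CPM in 10E and 462 and 423 in 11D (-3.87 ± 0.14, edgeR FDR = 1.71e-06). Its exons overlap Gm27741 on the other strand. Impact, a regulator of the translation kinase GCN2, was at 30.8 and 44.0 CPM in 10E and 207 and 241 in 11D (-2.59 ± 0.17, FDR = 0.000234). Both genes were several-fold lower in each 10E library than in either 11D library. Sgce, a sarcoglycan, and Peg10, a gene derived from a retrotransposon, are neighbours on chromosome 6 and share a control region. Sgce was at 4.39 and 3.50 CPM in 10E and 12.3 and 10.8 in 11D (-1.55 ± 0.28, FDR = 0.0408). Peg10 was at 86.0 and 134 CPM in 10E and 242 and 232 in 11D (-1.12 ± 0.19, FDR = 0.0377). The 2 neighbours differed in the same direction. Without 10E replicate 1 the FDR was 0.185 for Sgce and 0.166 for Peg10, and without 10E replicate 2 that of Sgce was 0.170.

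Among the genes listed as maternally expressed, Grb10 (chr11:11930508-12038683) was at 154 and 135 CPM in 10E and 25.2 and 32.7 in 11D (2.29 ± 0.15, edgeR FDR = 0.000234). Gnas, which encodes the stimulatory G protein alpha subunit, was at 213 and 207 CPM in 10E and 127 and 121 in 11D (0.75 ± 0.12, FDR = 0.0294). Its exons overlap Nespas on the other strand, a paternally expressed transcript of the same locus. Counts per gene do not separate the transcripts of Gnas. The Gnas call was lost without 10E replicate 1 (FDR = 0.202) and without 10E replicate 2 (FDR = 0.128). Several well-known imprinted genes did not pass: Snrpn was at 45.9 and 37.4 CPM in 10E and 37.4 and 36.6 in 11D, and Igf2r at 173 and 177 against 194 and 212. Zdbf2, a paternally expressed zinc finger gene, was at 190 and 234 CPM in 10E and 311 and 330 in 11D, with an FDR of 0.0673 by edgeR and 0.00838 by DESeq2. Among enzymes and readers of DNA methylation, 1 of 19 was called. Dnmt3l, the cofactor of de novo methylation, was at 174 and 140 CPM in 10E and 84.7 and 83.4 in 11D (0.89 ± 0.14, FDR = 0.0294; 0.202 without 10E replicate 1 and 0.0681 without 10E replicate 2). Its exons overlap Aire on the other strand. Dnmt3b, a de novo methyltransferase, was at 110 and 131 CPM in 10E and 198 and 185 in 11D and did not pass (FDR = 0.0538; 0.00415 by DESeq2). Zfp57 and Trim28, which protect imprints, had FDRs of 0.347 and 0.349.

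**Figure D2:**
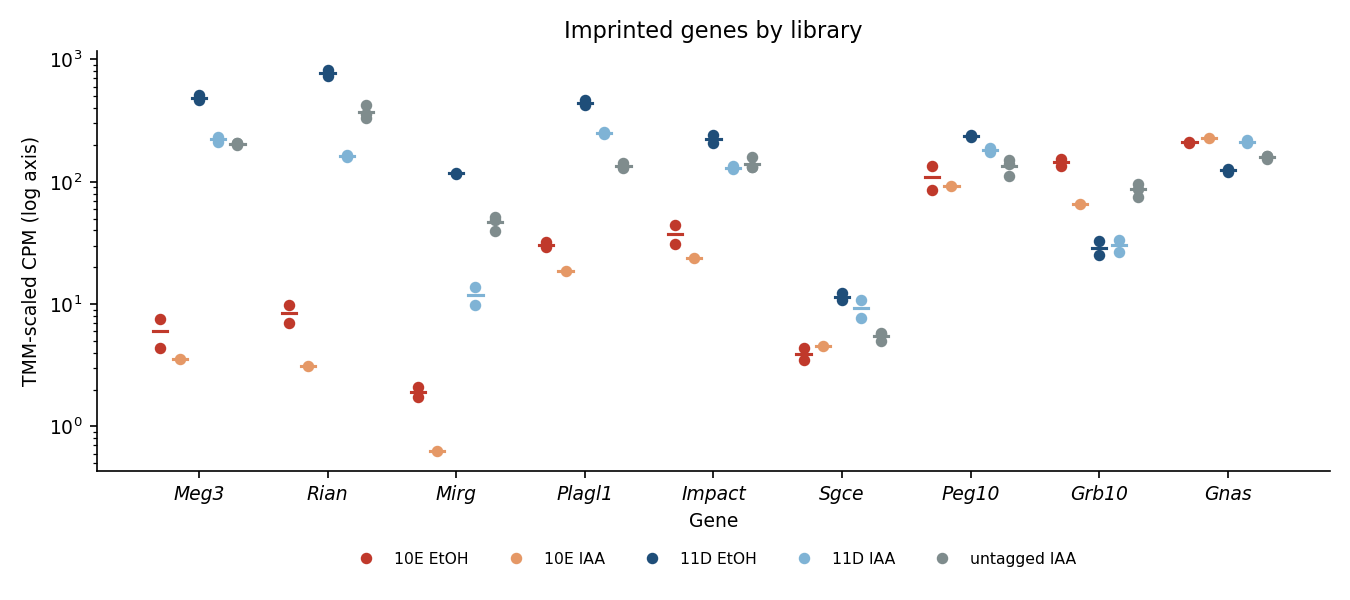
CPM of 9 imprinted genes (log axis) in each library, with a bar at the mean of each group of 1 to 3 libraries. The 10E points lie below the 11D points for Meg3 to Peg10 and above them for Grb10, and for Gnas the lines separate in EtOH and lie close in IAA.

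A continuous stretch of chromosome 6 was expressed about 2-fold lower in 10E. From Rab7 to Suclg2 (chr6:87999106-95718800, 7.72 Mb), 45 of 46 tested genes lay below 0, 21 were called lower and 0 higher (edgeR; 0.787% of tested genes were called lower), and the median log2 difference was -0.90, which is 1.87-fold higher in 11D. The bounds were set after the values were seen, so the segment carries no test. Of these calls 0 were left without 10E replicate 1 and 1 without 10E replicate 2, while the median stayed between -0.97 and -0.90 with any single library left out. The median of the 25 tested genes before it was 0.10 and of the 25 after it -0.025, with 0 edgeR calls on either side. On the rest of the chromosome the median was 0.033 over 622 genes, with 6 lower and 2 higher calls. Those 2 higher calls, Smarcad1 and Mad2l1, lay at -23.0 and -21.5 Mb from the start of Rab7. Their log2 differences were 0.67 and 1.02 in EtOH, and 0.75 and 0.72 in IAA. All tested genes from Smarcad1 to Serbp1, at -20.8 Mb, lay above 0 in EtOH, with Serbp1 at 0.69 (0.74 in IAA). Of these, Gm9794 and E230016M11Rik lay below 0 in IAA. This stretch was picked after its values were seen and carries no test. Copy number was not measured.

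The segment holds genes with unrelated roles. Slc6a6, the taurine transporter, was at 228 ± 17.7 CPM in 10E and 526 ± 43.3 in 11D (SD, n = 2; log2 difference -1.22 ± 0.12, edgeR FDR = 0.00328). Prickle2, of planar cell polarity, was at 15.2 ± 0.0711 and 50.6 ± 8.20 CPM (-1.75 ± 0.17, FDR = 0.00274). Lrig1, which restrains receptor tyrosine kinases, was at 26.8 ± 2.37 and 67.5 ± 5.63 CPM (-1.35 ± 0.14, FDR = 0.00557). Smaller differences passed as well: Rpn1, a subunit of the oligosaccharyltransferase, was at 93.5 ± 0.917 and 174 ± 13.3 CPM (-0.91 ± 0.12, FDR = 0.0126), and Sec61a1, of the translocon, at 138 ± 6.65 and 248 ± 13.9 (-0.85 ± 0.11, FDR = 0.0160). Mcm2, of the replicative helicase, was at 306 ± 12.7 and 455 ± 37.0 CPM and did not pass (FDR = 0.0669; 0.00694 by DESeq2). Mgll was the gene above 0, at 0.44 with an FDR of 0.436. In 42 of the 46 genes both 10E libraries lay below both 11D libraries. The same held for 118 of the 622 tested genes on the rest of chromosome 6. In either direction, the groups did not overlap in 7130 of all 14860 tested genes.

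The summed expression of the segment, as a percent of that of the rest of chromosome 6, separated the lines in each library. It was 4.42% and 4.31% in 10E EtOH, 8.64% and 8.50% in 11D EtOH, 4.29% in 10E IAA, and 8.68% and 8.66% in 11D IAA. In the untagged libraries it was 4.84%, 5.36% and 5.25%. The 10E values thus lie just below those of the untagged line, and the 11D values lie above both. In IAA, a contrast of other libraries, 43 of the 46 genes lay below 0 with a median of -0.98 (1.98-fold), and the segment held 13 of the 26 genes lower in 10E there (0.145% of those tested in IAA). No whole autosome or X chromosome moved in this way, with medians from -0.10 (chromosome 12) to 0.072 (chromosome 7). The 9 tested genes of the Y chromosome had a median of -0.68 in EtOH and -0.44 in IAA, with 1 lower call in EtOH. Of 14264 runs of 25 neighbouring tested genes, 149 had a median beyond 0.5 in size, all of them below 0. They fell at this segment, around Meg3, and in stretches of chromosomes 4, 13 and 17.

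**Figure D3:**
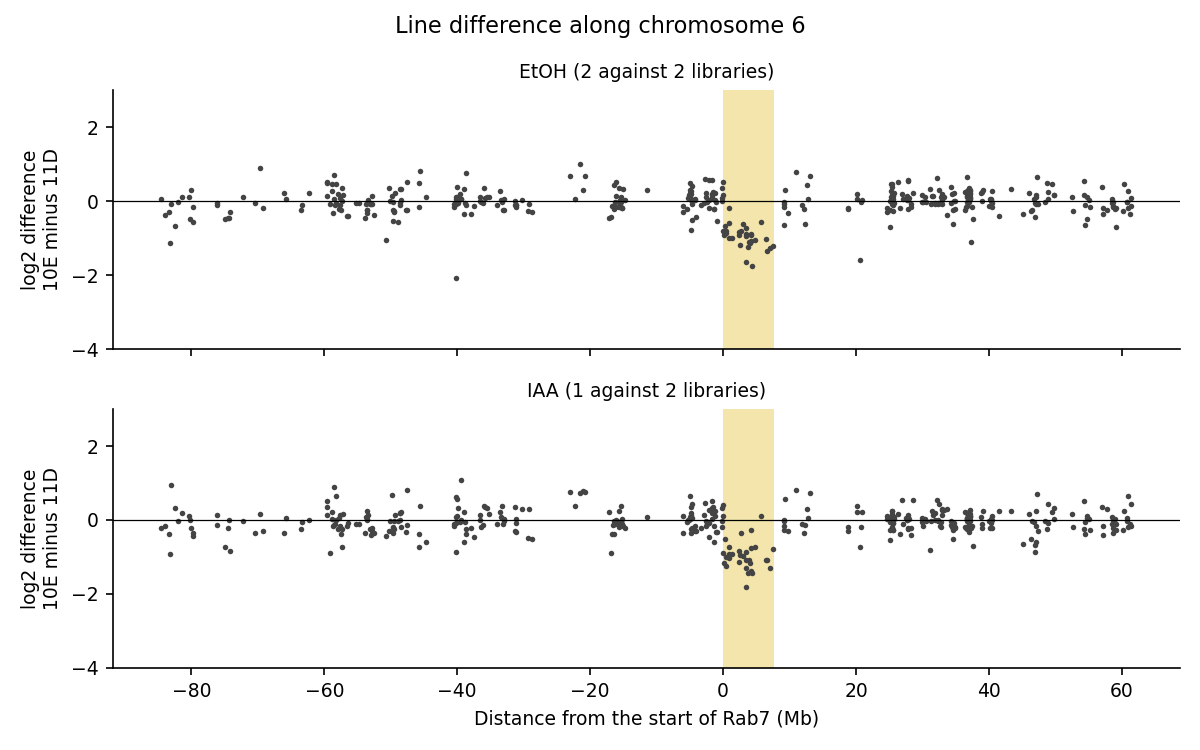
Log2 difference between the lines (vertical axis) for 412 tested genes of chromosome 6 with a mean of at least 10 CPM, against distance from the start of Rab7 in Mb, in EtOH above and IAA below. Shading marks the 7.72 Mb segment, where the points lie near -0.90 in EtOH and -0.98 in IAA, while most of those outside lie around 0.

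Many mouse zinc finger genes lie in clusters and encode KRAB-type repressors, which are known for binding retrotransposons. Of 56 tested genes named Zfp9 followed by 2 digits, 6 were lower in 10E, 0 higher, and 50 did not pass, while 52 lay below 0, with a median log2 difference of -0.51. At an unadjusted p under 0.05, 29 were lower and 0 higher, and DESeq2 called 8. Their summed level was 1649 to 1751 CPM in 10E, 2259 to 2652 in 11D and 2553 to 3363 in the untagged line. Near-identical members of this family can share reads, so values of single genes are uncertain. Zfp951 (chr5:104813169-104860070) was at 8.11 and 10.2 CPM in 10E and 42.7 and 45.3 in 11D (-2.27 ± 0.18, edgeR FDR = 0.00101). Zfp981 (chr4:146502027-146539395) was at 48.9 and 38.5 CPM in 10E and 94.5 and 124 in 11D (-1.34 ± 0.17, FDR = 0.0116; 0.100 without 10E replicate 1 and 0.107 without 10E replicate 2). Both were lower in each 10E library. The stretches of chromosomes 4 and 17 were picked because runs of 25 tested genes there had EtOH medians beyond 0.5 in size. Their EtOH medians and calls therefore carry no test. On chromosome 4, 71 tested genes from chr4:143412426-148059551 had a median of -0.55 in EtOH and -0.15 in IAA. They held 8 lower calls and 1 higher in EtOH, and 19 bear a name starting with Zfp or Rex2. On chromosome 17, 30 tested genes from chr17:17827158-23564238 had a median of -0.55 in EtOH and -0.21 in IAA, with 2 lower calls, and 21 of them bear a Zfp name. All genes named Zfp and a number (359 tested) had a median of -0.16, with 8 lower and 1 higher call.

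The gene with the largest positive difference was T (chr17:8434423-8442496). It was at 12.6 and 16.9 CPM in 10E and 0.921 and 1.01 in 11D (3.90 ± 0.35, edgeR FDR = 0.00181), and every 10E library exceeded both 11D libraries more than 10-fold. T is a target of Wnt signalling, which CHIR99021 activates in this medium. Of 16 tested Wnt and beta-catenin targets, 3 were higher in 10E (T, Cdx1 and Apcdd1), 0 lower, and 13 did not pass, with a median of 0.67. That median was 0.20 without 10E replicate 2 and 0.30 without 11D replicate 2. Cdx1, a homeobox gene, was at 96.1 and 108 CPM in 10E and 51.3 and 30.6 in 11D (1.35 ± 0.23, FDR = 0.0377; 0.213 without 10E replicate 1 and 0.170 without 10E replicate 2). Apcdd1, a Wnt inhibitor at the membrane, was at 48.4 and 66.0 CPM in 10E and 24.9 and 17.5 in 11D (1.47 ± 0.23, FDR = 0.0282; 0.118 without 10E replicate 1 and 0.151 without 10E replicate 2). Axin2, a feedback inhibitor of the pathway, was at 160 and 223 CPM in 10E and 119 and 94.2 in 11D and did not pass (FDR = 0.0707; 0.00212 by DESeq2).

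T and Cdx1 are also mesendoderm markers, a list of 14 of which 5 were tested, 2 were called higher and 3 did not pass, of which DESeq2 called Nkx1-2. The list summed to 146 to 231 CPM in 10E, 54.0 to 106 in 11D and 128 to 155 in the untagged line. Mesp1 and Cer1 had 0 counts in all EtOH libraries, and 9 of the 14 markers averaged under 1 CPM. The part of such cells in the difference was not tested. The pluripotency panel identified both lines as ES cells: its 10 genes summed to 7648 to 8674 CPM in 10E and 6742 to 6870 in 11D, and 0 were called by edgeR or DESeq2 (1 at an unadjusted p under 0.05). Pou5f1, a core factor whose exons overlap Gm19553, was at 818 and 946 CPM in 10E and 728 and 743 in 11D (FDR = 0.370). Nanog was at 789 and 824 CPM in 10E and 659 and 704 in 11D (FDR = 0.366). Klf4 came nearest to a call, at 583 and 647 CPM in 10E and 393 and 236 in 11D (0.95 ± 0.22, FDR = 0.0845). The other panel genes (Sox2, Esrrb, Zfp42, Tfcp2l1, Tbx3, Prdm14 and Dppa3) had FDRs from 0.324 to 0.999.

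The markers of other states gave no call by edgeR. Of 33 tested naive pluripotency genes 0 were called (6 at an unadjusted p under 0.05, 0 by DESeq2), and of 18 formative and primed epiblast genes 0 were called (7 unadjusted, 1 by DESeq2). Primitive endoderm (10 tested, 2 unadjusted), trophectoderm (12 tested, 4 unadjusted), neural (7 tested, 2 unadjusted), fibroblast (6 tested, 1 unadjusted) and 2-cell-like genes (15 tested, 8 unadjusted) also gave 0 calls by edgeR and 0 by DESeq2. The 2-cell-like genes, which mark a rare totipotent-like state, had 13 of 15 tested above 0, a median of 0.95 and 6 higher and 2 lower at an unadjusted p under 0.05. Their summed level was 128 to 159 CPM in 10E and 132 to 134 in 11D. Of 22 tested genes of the ATF4 stress response 20 lay above 0, with 0 calls by edgeR, 8 higher at an unadjusted p under 0.05 and 3 calls by DESeq2. Sterol synthesis genes leaned to one side: 21 of 22 tested lay below 0, with a median of -0.40 that was -0.24 without 10E replicate 1. None was called by edgeR, 12 passed an unadjusted p under 0.05 (11 lower and 1 higher), and DESeq2 called 2.

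Further genes higher in 10E have varied roles. Spry2, a feedback inhibitor of receptor tyrosine kinase signalling, was at 117 and 137 CPM in 10E and 61.4 and 58.2 in 11D (1.08 ± 0.14, edgeR FDR = 0.0123), the 1 call among 17 tested FGF and ERK feedback genes. Abca1, which exports cholesterol, was at 86.4 and 90.4 CPM in 10E and 35.6 and 31.0 in 11D (1.41 ± 0.15, FDR = 0.00439). Zfp516, a zinc finger factor, was at 192 and 166 CPM in 10E and 85.9 and 74.6 in 11D (1.15 ± 0.14, FDR = 0.0116). In these 3 genes both 11D libraries lay below both 10E libraries, as in every gene called higher. Fgf10, a growth factor whose exons overlap Gm16263, was at 12.1 and 10.5 CPM in 10E and 3.68 and 3.02 in 11D (1.80 ± 0.29). Gpx1, a glutathione peroxidase, was at 184 and 225 CPM in 10E and 104 and 69.1 in 11D (1.24 ± 0.21). Itga5, the fibronectin receptor subunit, was at 161 and 131 CPM in 10E and 75.8 and 86.9 in 11D (0.83 ± 0.14). The remaining genes of the set with the largest folds were Zfyve28 (1.63 ± 0.30), Tmem132d (1.61 ± 0.24), Asxl3, a chromatin regulator (1.53 ± 0.24), the kinesin Kif5c (1.39 ± 0.24), Dpysl5 (1.39 ± 0.25) and the tetraspanin Tspan2 (1.37 ± 0.24). Each call in this paragraph was lost without 10E replicate 1 and without 10E replicate 2, with FDRs between 0.0681 and 0.236, and that of Tspan2 also without 11D replicate 2 (0.0502).

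Further genes lower in 10E also have varied roles. Hormad1, a protein of meiotic chromosome axes, was at 1.86 and 2.30 CPM in 10E and 11.1 and 13.8 in 11D (-2.59 ± 0.29, edgeR FDR = 0.00696). Magea4, a germline antigen on the X chromosome, was at 0.797 and 0.399 CPM in 10E and 4.60 and 6.03 in 11D (-3.22 ± 0.48, FDR = 0.0246). Igfbp4, which binds insulin-like growth factors, was at 1.06 and 0.899 CPM in 10E and 8.29 and 7.86 in 11D (-3.03 ± 0.36, FDR = 0.0105). These 3 were at or below 2.30 CPM in 10E. Among 21 tested germ cell genes, 2 were lower (Hormad1 and Tuba3a, -1.09 ± 0.20), 0 higher, and 19 did not pass. Egln3, an oxygen-sensing prolyl hydroxylase, was at 6.25 and 4.99 CPM in 10E and 22.4 and 21.1 in 11D (-1.96 ± 0.23, FDR = 0.00842), and it was the 1 call among 28 glycolysis and hypoxia genes. Aspa, which cleaves N-acetylaspartate, was at 1.46 and 1.30 CPM in 10E and 5.52 and 7.31 in 11D (-2.26 ± 0.36). Slfn9 was at 3.32 and 3.50 CPM in 10E and 13.5 and 14.1 in 11D (-2.02 ± 0.25). Mt2, a metallothionein whose exons overlap Gm45774, was at 54.4 and 113 CPM in 10E and 260 and 210 in 11D (-1.50 ± 0.29, FDR = 0.0498; 0.116 by DESeq2). Without 10E replicate 1 the calls of this paragraph were lost, with FDRs between 0.0867 and 0.202, and without 10E replicate 2 all but that of Mt2 (0.0681 to 0.188). Aspa and Tuba3a were also lost without 11D replicate 2 (0.119 and 0.122).

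**Figure D4:**
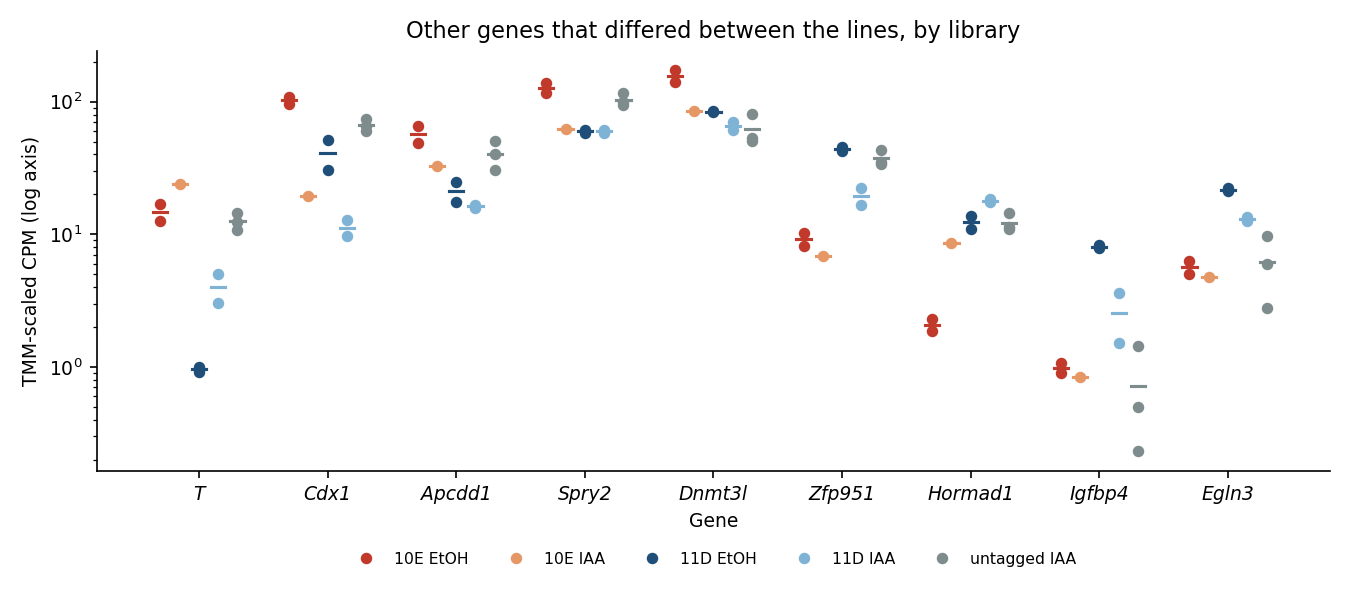
CPM of 9 genes outside the imprinted lists (log axis) in each library, with a bar at the mean of each group of 1 to 3 libraries. In EtOH the 10E points lie above the 11D points for T to Dnmt3l and below them for Zfp951 to Egln3.

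Among Y-linked genes 1 call was made. Of the 10 listed, 5 were tested, 1 was called lower, 0 higher, and 5 of 5 lay below 0 with a median of -0.74. Ddx3y, an RNA helicase, was at 66.3 and 79.0 CPM in 10E and 117 and 138 in 11D (-0.82 ± 0.14, edgeR FDR = 0.0350; 0.236 without 10E replicate 1 and 0.107 without 10E replicate 2). Uty, a histone demethylase homologue, was at 41.2 and 57.3 CPM in 10E and 72.4 and 84.6 in 11D (FDR = 0.0997; 0.0486 by DESeq2). Eif2s3y was at 63.3 and 65.5 CPM against 76.4 and 86.3 (FDR = 0.219), Uba1y at 12.5 and 7.29 against 12.0 and 19.4 (FDR = 0.276), and Zfy1 at 0.797 and 0.799 against 4.30 and 3.38 (FDR = 0.0644). The values of Uba1y overlap between the lines and those of the others do not. A lack of overlap was common, found in 7130 of all 14860 tested genes. Kdm5d had 0 counts in 10E and 11 in 11D, which is 4.58-fold higher in 11D against a floor of 3 counts over the 10E group. That fold does not cover the counting error of 11D. Usp9y was at 0.499 to 0.921 CPM and Zfy2 at most 0.133 in the EtOH libraries, and Sry and Rbmy were at 0.

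At the X inactivation centre, 2 of 5 tested genes were lower in 10E. Ftx, a noncoding activator of Xist whose exons overlap small RNA genes, was at 4.78 and 3.10 CPM in 10E and 11.1 and 12.3 in 11D (-1.61 ± 0.29, edgeR FDR = 0.0433). Its neighbour Chic1 was at 54.8 and 57.7 CPM in 10E and 83.8 and 106 in 11D (-0.77 ± 0.14, FDR = 0.0418). Jpx, another noncoding RNA of the centre, was at 1.33 and 0.699 CPM in 10E and 6.45 and 3.20 in 11D and did not pass (FDR = 0.104). Tsix, the antisense partner of Xist, was at 77.9 and 72.8 CPM in 10E and 70.0 and 61.8 in 11D (FDR = 0.530). Without 10E replicate 1 the FDR was 0.147 for Ftx and 0.268 for Chic1, and without 10E replicate 2 it was 0.170 and 0.167. Without 11D replicate 2 that of Chic1 was 0.0575.

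The IAA libraries, which the contrast in EtOH did not use, gave the same comparison after loss of SPT16. There 8 of 17904 genes were higher in 10E (0.0447%) and 26 lower (0.145%), in a fit where the 1 library of 10E IAA is assumed to vary like the other groups. That arm has no replicate, so the FDRs below carry no check of its spread. Of the 163 genes called in EtOH, 153 had the same sign in IAA (93.9%, against 65.3% of all tested genes), and 25 were called there with the same sign, which is 25 of the 34 IAA calls. Meg3 was at 3.54 CPM in 10E and 233 and 212 in 11D (-5.90 ± 0.30, edgeR FDR = 1.63e-07). Plagl1 was at 18.8 CPM against 257 and 246 (-3.68 ± 0.18, FDR = 1.42e-07), and Impact at 24.0 against 127 and 134 (-2.37 ± 0.22, FDR = 0.000165). Grb10 was at 65.5 CPM against 26.9 and 33.5 (1.16 ± 0.18, FDR = 0.0161), and T at 24.0 against 3.05 and 5.01 (2.53 ± 0.31, FDR = 0.00163). These imprinted differences and that of T had the same direction in both treatments. Gnas was at 227 CPM against 219 and 208 (0.16 ± 0.13, FDR = 0.741) and Ftx at 21.1 against 21.9 and 28.9 (-0.22 ± 0.27, FDR = 0.823), with levels close together. Rian was at 3.13 CPM in 10E IAA and 165 and 161 in 11D IAA (-5.63 ± 0.26).

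A term for line by treatment was fitted to the same 7 libraries. The line by treatment interaction gave 0 calls over 17904 genes by edgeR (872 at an unadjusted p under 0.05, smallest FDR 0.574) and 1 by DESeq2, and 0 of the genes named by the rule were called by edgeR. It rests on the 1 library of 10E IAA, so a lack of calls does not show that the difference was alike in both treatments. Among those genes the smallest unadjusted interaction p-values were 0.000366 for Spry2, which was at 62.5 CPM in 10E IAA and 58.1 and 61.4 in 11D IAA, and 0.000416 for Grb10.

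**Figure D5:**
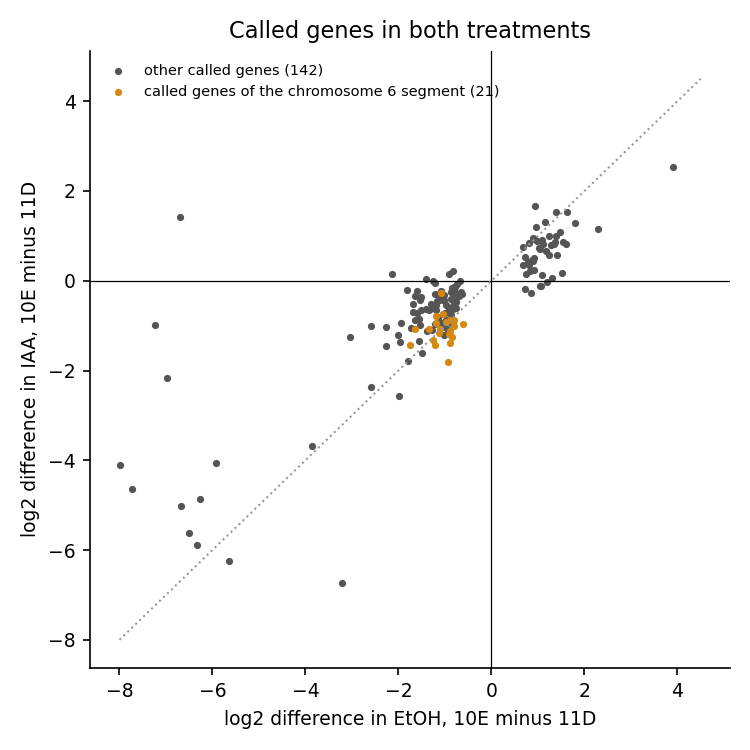
Log2 difference between the lines in IAA (vertical axis) against that in EtOH (horizontal axis) for the 163 genes called in EtOH, with the 21 of the chromosome 6 segment in orange and a dotted line of equality. Points of genes with 0 counts in a line are fitted values. Of these points, 153 lie in the quadrants of equal sign.

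The untagged line after IAA had a mean between the EtOH means of 10E and 11D for 129 of the 163 called genes, above both for 24 and below both for 10. Called genes have a wide gap between the lines, which by itself makes a value between them more frequent. Untagged Meg3 was at 198 to 208 CPM, Rian at 334 to 426 and Mirg at 39.7 to 51.6, far above 10E and below 11D. Plagl1 was at 129 to 142 CPM, Impact at 131 to 159 and Grb10 at 75.7 to 96.2, also between the lines. T, at 10.8 to 14.5 CPM, was near the 10E values of 12.6 and 16.9. Igfbp4, at 0.230 to 1.44 CPM, was near 10E, while Hormad1, at 10.9 to 14.5, and Zfp951, at 33.7 to 42.9, were near 11D. Treatment and tag differ between the untagged libraries and the EtOH libraries, so these positions are given with no test.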

How the data were processed

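The authors deposited whole-number read counts per gene, not normalized. STAR, deepTools and mm10 appear, without versions, in the submitters' processing notes; which counter, annotation and strand setting were used is not given in the sources used here. The labels list 11 samples and the table holds 10 columns. Columns carry the codes 10E, 11D and TIR1, and nothing ties 10E or 11D to the clone numbers of the labels. TIR1 was read as untagged, being the one code with 3 IAA columns, as the untagged samples have in the labels.

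The main test was edgeR 4.0.16 (TMM, filterByExpr, quasi-likelihood F test, Benjamini-Hochberg adjustment) in R 4.3.3. The EtOH contrast used 4 libraries, and the IAA contrast and the interaction used the 7 tagged libraries with 1 coefficient per line and treatment. The standard error is the log2 difference divided by the square root of F. DESeq2 1.42.0, library totals, no filter, replicate terms, larger fits and leaving out each library were alternatives. Scripts were tested on simulated data. Positions come from GENCODE release M21 (53180 of 55291 symbols matched) and sequences from RefSeq.

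Named genes were the FACT subunits, the pluripotency panel, the Dlk1-Dio3 and Y-linked lists, called imprinted genes, the 12 highest and 12 lowest called differences with a mean of at least 2 CPM, the 4 smallest FDRs per direction, and up to 2 called genes from every list in each direction. Predicted genes were left out of ranked sets, and other names in the text were chosen after their values were seen. There were 42 lists. The members and lists were chosen with earlier results of these data known.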

Additional observations from a re-analysis of the deposited data

How the results depend on the processing

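The size of the call lists depended on the fit. Against 46 higher, 117 lower and 105 at least 2-fold in EtOH, DESeq2 gave 115 and 192, library totals 120, 212 and 180, no filter 397, 491 and 399, the fit of the 7 tagged libraries 229, 349 and 255, and that of all 10 libraries 216, 363 and 260. With a replicate block the counts were 4, 19 and 22, and 35 of 50 named calls were lost. The replicates numbered alike deviated in opposite directions (r = -0.217 over 14860 genes), and the numbers were not taken as pairs. A crossed replicate block, added after seeing the data, gave 268, 378 and 280. Leaving out both libraries rich in CT010467.1, also added later, gave 210, 298 and 289. Leaving out 1 library gave 2 to 696 higher, 10 to 539 lower and 13 to 498 at least 2-fold. In IAA, against 8 higher and 26 lower, DESeq2 gave 14 higher, library totals 23, no filter 112 and 115, and the fit of all 10 libraries 16 higher. Leaving out 1 library of 11D IAA gave 1 to 3 higher and 15 lower. The cause of these moves was not tested.

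The 50 named calls kept their sign in each of the 591 values that the alternatives gave. The 5 microRNA genes had no adjusted p by DESeq2, and 4 of them were not tested without 11D replicate 2. Of the genes not called, Dio3 was at -0.577 and -0.92 without 10E replicate 2 and 11D replicate 2 (to 1.29 without 11D replicate 1) and at -0.065 with the crossed replicate block, and DESeq2 put it at -0.106 with no adjusted p. Dppa3 was at -2.168 to 0.241 without 1 library. Prdm14 was at 0.007 by DESeq2 and in the fit of the tagged libraries, at 0.006 with no filter, and at -0.274 to 0.225 without 1 library (0.017 without 11D replicate 1). Sox2 was at 0.005 with no filter, at 0.007 in the fit of the tagged libraries, and at -0.613 to 0.417 without 1 library (0.386 without 11D replicate 1). Supt16 was at -0.024 without both libraries rich in CT010467.1.

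Chromosome medians moved by little. Leaving out 1 library gave -0.062 to 0.038 for chromosome 1, 0.012 to 0.032 for 5, -0.022 to 0.024 for 6, 0.015 to 0.097 for 7, -0.078 to -0.027 for 8, -0.112 to -0.064 for 12, 0.024 to 0.065 for 15, 0.046 to 0.11 for 17 and -0.031 to 0.074 for 19. The chromosome 6 segment was at -0.972 to -0.895 without 1 library and at -0.972 without both rich libraries. The median of all tested genes stayed within -0.018 and 0.006. Depth of 3554390 counts in 11D replicate 1 limits what could be called among low genes.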
